A study of Mus musculus with 10 samples.

Results

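The glycosylphosphatidylinositol (GPI) anchor is a glycolipid that is built on the endoplasmic reticulum and attached to the carboxyl end of many surface proteins of neurons. Its first step, the transfer of N-acetylglucosamine to phosphatidylinositol, is carried out by a membrane enzyme of several subunits. Of its genes, 6 were studied here: Pigp, Piga, Pigc, Pigh, Pigq and Dpm2. They were found as every probe set that the platform annotation gave to exactly 1 of these symbols, which yielded 7 probe sets for the 6 genes, among 21789 probe sets and 19938 genes in all. Pigp lies within the duplicated interval of chromosome 16 (Mmu16) in Dp1Yey mice and is therefore in 3 copies, whereas the other 5 genes lie elsewhere and are in 2 copies. Pigp was chosen with its difference between the genotypes already known, so its values are a description and no p-value is given for it. The other 5 genes were taken for belonging to the same enzyme.

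The tissue was whole hippocampus from both sides of male mice aged 16 weeks, and each mouse gave 1 array. The 10 arrays fell into 5 Dp1Yey mice, which carry a duplication of Mmu16 from Lipi to Zbtb21 (75540514 to 97962627, mm10), and 5 control littermates without it. The labels give a C57BL/6N background for both groups, whereas the study's methods describe backcrossing to C57BL/6J. Values are log2 intensities after robust multi-array average (RMA) normalisation, so a difference of 1 is a doubling. All 7 neuronal markers (Snap25, Syt1 and Camk2a among them) and all 7 hippocampal markers (Prox1 and Wfs1 among them) lay above a background level of 5.44, the 90th percentile of the olfactory receptor genes. The median of the arrays was between 6.31 and 6.37 in Dp1Yey mice and between 6.35 and 6.44 in control mice, and their interquartile range between 3.47 and 3.53 against 3.40 and 3.51, so the arrays differed slightly in shape between the groups. The study's question bearing on these genes was how far a gene in 3 copies follows its dose, and whether genes in 2 copies change with it.

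Pigp encodes a small membrane subunit of the enzyme (Entrez 56176, Mmu16, 94358763 to 94371015, minus strand, mm10). Its beginning overlaps that of Ttc3, a gene of the plus strand that is also in 3 copies, by 391 bases of annotation. RefSeq (GRCm38.p6) gives 4 start windows for Pigp and 1 for each of the other 5 genes. The 250 bases before 1 of these starts (chr16:94370711-94370960, minus strand) are shown because they lie in the stretch of the duplicated locus that both genes share. The capitals mark GCGCATGCGC, the core of sites bound by the transcription factor NRF1. It reads the same on both strands, is the longest such run common to a Pigp and the Ttc3 window, and was searched for after the sequence had been read.

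Pigp promoter: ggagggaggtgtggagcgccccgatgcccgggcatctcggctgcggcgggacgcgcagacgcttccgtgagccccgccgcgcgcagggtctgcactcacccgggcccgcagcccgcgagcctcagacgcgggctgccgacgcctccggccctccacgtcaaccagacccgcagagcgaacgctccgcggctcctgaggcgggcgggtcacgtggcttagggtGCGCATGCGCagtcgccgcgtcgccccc

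The same 10 bases (94370729 to 94370738) lie within the 250 bases before a start in 2 of the 4 Pigp windows and in the 1 window of Ttc3. They occurred in 0.782% of 32851 such windows genome-wide, and in 0 of the 5 windows of Piga, Pigc, Pigh, Pigq and Dpm2. This is a description of sequence, and the arrays measured nothing at the site.

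Both probe sets of Pigp gave higher values in Dp1Yey mice, and neither reached 1.5-fold, the ratio of 3 to 2 copies. Probe set 10545528 stood at 8.96, 9.11, 9.09, 9.05 and 9.24 in Dp1Yey replicates 1 to 5 and at 8.96, 8.67, 8.82, 8.86 and 8.64 in control replicates 1 to 5. All 5 Dp1Yey mice lay above all 5 control mice, but Dp1Yey replicate 1 exceeded control replicate 1 by just 0.00023. Group means were 9.09 ± 0.10 for Dp1Yey and 8.79 ± 0.14 for controls (SD, n = 5 each) and differed by 0.30 on the log2 scale or 1.23-fold (95% interval 1.11 to 1.36, limma). Groups that did not overlap, with Dp1Yey higher, were found for 2.48% of all probe sets (4.84% in either direction), a share given only as background since this contrast chose Pigp.

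Probe set 10441055 stood at 8.00, 8.17, 8.15, 7.99 and 8.24 in Dp1Yey replicates 1 to 5 and at 8.01, 7.99, 7.94, 7.90 and 7.96 in control replicates 1 to 5. Here Dp1Yey replicates 2, 3 and 5 lay above every control mouse, whereas replicates 1 and 4 lay within the control range. Group means were 8.11 ± 0.11 for Dp1Yey and 7.96 ± 0.040 for controls (SD, n = 5 each) and differed by 0.15 or 1.11-fold (1.03 to 1.19). Of the pair, 10545528 lay closer to the dose, at an increase of 23.0% against 10.9%, where a level in proportion to 3 copies would give 1.5-fold. Since this contrast chose Pigp, its intervals for the mean difference are description only and were not used as a test against that ratio. The difference between the sets in their response was not tested.

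**Figure D1:**
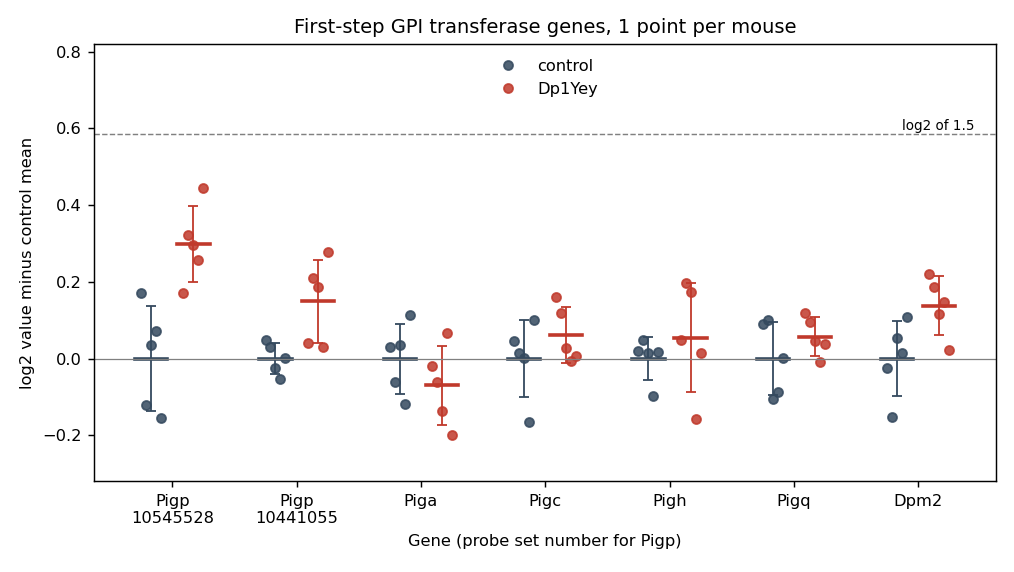
Each point is 1 mouse and shows its log2 value minus the control mean of that probe set, with the mean as a thick bar and the SD as a thin bar (control in blue, Dp1Yey in red, n = 5 each). Pigp probe set 10545528 lies 0.30 above control and 10441055 lies 0.15 above, both under the dashed line at log2 of 1.5, and the points of the 5 partner genes overlap between the groups.

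The 2 probe sets are annotated to nearly the same RNAs, with 5 of the 6 curated RefSeq transcripts of Pigp each and 4 in common. Their numbers differ in place, however. Probe set numbers on this platform follow the genome: for 96.8% of 21698 probe sets with a RefSeq position, the gene lay on the chromosome most common among the 20 nearest-numbered probe sets. For 10441055, all 20 of these neighbours lay on Mmu16, between Hlcs and Vps26c on its immediate sides. For 10545528, 0 of the 20 lay on Mmu16 and 19 lay on Mmu6, at 72513641 to 83054571. Among the 163 probe sets of interval genes it was the 1 whose number fell outside Mmu16. Probe sequences and the genome were not used here, so where 10545528 was designed, and whether it reads the duplicated locus, was not tested. The probe set that showed the larger difference is thus the one whose number is out of place, and the one numbered among the Mmu16 genes showed the smaller.

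The offset between the values of the sets, 10545528 minus 10441055, was 0.94 to 1.06 log2 units within Dp1Yey mice (0.98 ± 0.049, SD, n = 5) and 0.68 to 0.96 within control mice (0.83 ± 0.14, SD, n = 5). Among Dp1Yey mice both sets were highest in replicate 5, then in 2 and 3, and lowest in 1 and 4. Among control mice both were highest in replicate 1, but the other 4 came in different order, with 10545528 lowest in replicate 5 and 10441055 lowest in replicate 4. Likeness to other genes was measured by Pearson r over the 10 arrays, which includes the difference between the genotypes, among 15192 genes above background. The 5 genes most like 10545528 were Capzb (r = 0.95), Tbl2 (0.94), Hopx (0.94), Ywhaz (0.93) and Akt2 (0.92). The 5 most like 10441055 were Tprkb (0.96), Gldc (0.96), Hddc3 (0.95), Hadh (0.95) and Adhfe1 (0.94). The lists shared 0 genes, and all 10 genes lie outside the duplicated interval. Between the Pigp sets themselves r was 0.78 over the 10 arrays. Of the 15192 genes, 184 had a higher r with 10545528 and 187 a higher r with 10441055. Taken by genotype, r between the sets was 0.89 over the 5 Dp1Yey arrays and -0.014 over the 5 control arrays. Each of these rests on 5 arrays, and 10441055 spanned only 7.90 to 8.01 in control mice, so they cannot show that the sets differ by genotype. For deviations from the group means r between the sets was 0.49 over all 10 arrays. Ywhaz and Akt2 were read by probe sets whose numbers, like that of 10545528, fall away from their gene's chromosome, against 0 of the 5 genes most like 10441055. Over all probe sets with a position, number and chromosome matched for 96.8%. The place of these numbers was looked at after the lists were drawn, and its bearing on 10545528 was not tested.

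**Figure D2:**
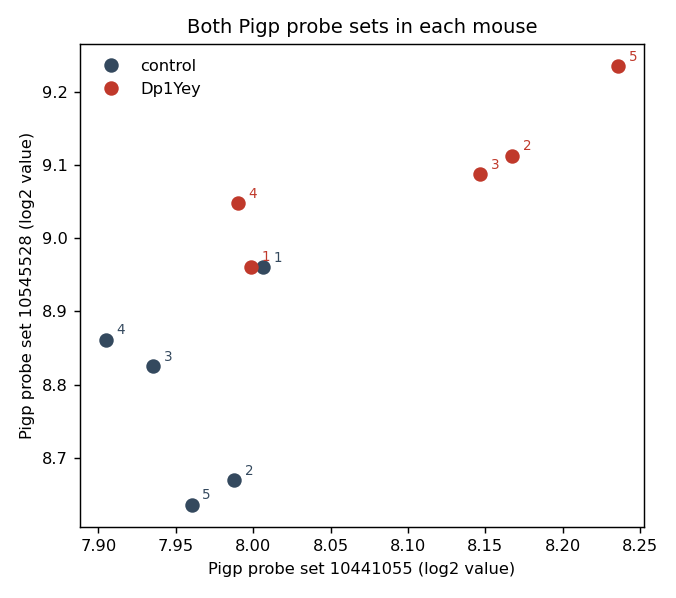
Log2 values of the 2 Pigp probe sets are plotted against each other, 1 point per mouse, with replicate numbers beside the points (control in blue, Dp1Yey in red). Dp1Yey replicates 2, 3 and 5 lie apart at the upper right, while Dp1Yey replicate 1 and control replicate 1 lie almost on the same spot.

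Neighbouring genes of the same dose showed how varied the response was around Pigp. Of 143 measured genes of the interval, 59 rose and 1 fell (adjusted p under 0.05, limma), against 0.826% called among all probe sets. The gene that fell was Mir155, which lay below background (4.82 ± 0.043 against 5.02 ± 0.072, SD, n = 5 each), and under 13 of 20 alternatives no interval gene was called lower. Among the 96 other interval genes above background the median was 0.32 on the log2 scale or 1.25-fold. Probe set 10545528 exceeded 44 of these 96 genes and 10441055 exceeded 27. Of the 10 interval genes above background nearest to Pigp, 5 on each side, 6 rose. Another 3, with control means of 5.62 to 5.95, had values below control.

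Vps26c, a cargo sorting subunit, rose 1.58-fold (95% interval 1.44 to 1.72, adjusted p = 0.000146, limma) and the chromatin gene Morc3 rose 1.52-fold (1.37 to 1.68). The biotin ligase gene Hlcs rose 1.28-fold, the kinase gene Dyrk1a 1.25-fold on the brighter of its probe sets and the potassium channel gene Kcnj6 1.25-fold. Ttc3, which shares its start region with Pigp and encodes a ubiquitin ligase, rose 1.17-fold (1.09 to 1.25, adjusted p = 0.0408, limma), a call that was lost with quantile normalisation repeated (0.0664) or with the interquartile range as covariate (0.104), as well as when any 1 array other than control replicate 2 was left out (0.0559 to 0.109). Over 19 alternatives its adjusted p ran from 0.00607 (array weights) to 0.13 (replicate number as a block), where the call was also lost. The Hlcs call was lost with that covariate (0.134), the highest over its alternatives. Chaf1b, Cldn14, Sim2 and Kcnj15 stood between 0.917-fold and 1.02-fold and were not called. The sign of Chaf1b and Sim2 turned with quantile normalisation repeated and with median centring, and that of Chaf1b, Sim2 and Kcnj15 with the interquartile range as covariate.

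**Figure D3:**
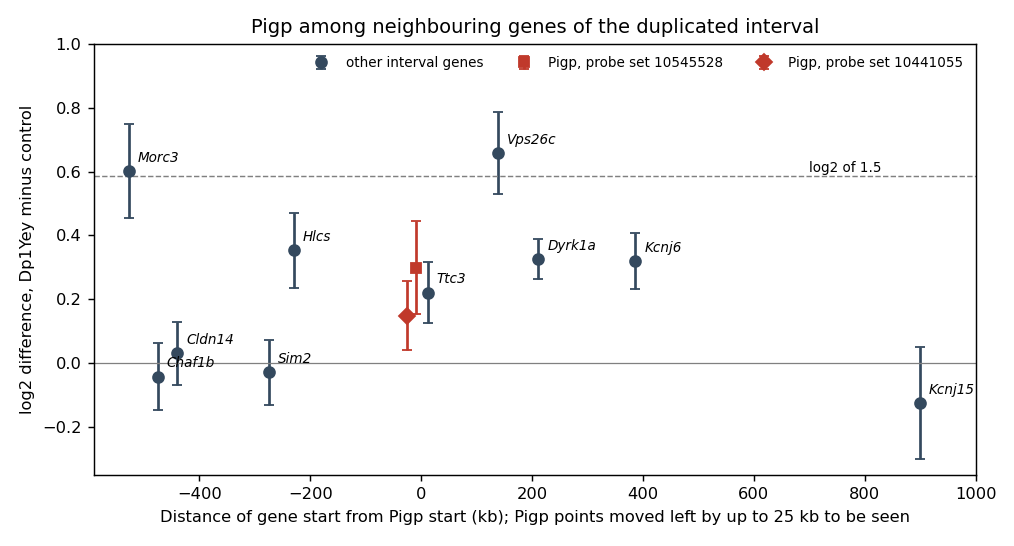
Points give the log2 difference (5 Dp1Yey minus 5 control mice), with its 95% interval, for Pigp (red, both probe sets) and the 10 nearest interval genes above background (blue) against the distance of their starts from the start of Pigp in kb. Vps26c at 0.66 and Morc3 at 0.60 lie above the dashed line at log2 of 1.5, and the Pigp sets at 0.30 and 0.15 lie near Ttc3 at 0.22.

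None of the 5 partner genes in 2 copies was called: limma gave 0 of 5 at an adjusted p under 0.05, beside 0.826% of all probe sets. A rank statistic on fold changes, like the study's own, also called 0 of 5, beside 748 of 21789 probe sets. At shares this low, 0 of 5 says little about the partners. At an unadjusted p under 0.05, 1 of 5, Dpm2, was higher (8.87% of all probe sets higher, 19.3% in either direction). Values lay above control for 4 of the 5 partners, beside 47.2% of probe sets above background and 43.1% of all probe sets. In whole tissue, a change in the number of cells of a type and a change in RNA per cell cannot be told apart. Dpm2 encodes a small membrane protein that binds the first-step enzyme and also belongs to dolichol-phosphate-mannose synthase, which supplies mannose to later steps (Entrez 13481, chromosome 2, 32570858 to 32573571). It stood at 9.77, 9.73, 9.66, 9.69 and 9.57 in Dp1Yey replicates 1 to 5 and at 9.52, 9.40, 9.60, 9.56 and 9.66 in control replicates 1 to 5. Of the Dp1Yey mice 4 lay above every control mouse, and replicate 5 lay within the control range. The difference was 0.14 on the log2 scale (1.10-fold, 1.02 to 1.19, adjusted p = 0.194, limma). It was 0.012 once the interquartile range entered as a covariate and 0.079 without control replicates 1 and 2, with adjusted p from 0.126 to 0.986 over 19 alternatives.

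The catalytic subunit gene Piga (Entrez 18700, chromosome X, 164419780 to 164433916) was the partner with a mean below control, at 6.47 ± 0.10 for Dp1Yey and 6.54 ± 0.091 for controls (SD, n = 5 each), or -0.070 on the log2 scale (0.953-fold, 0.875 to 1.04). Its values ranged from 6.34 to 6.61 and from 6.42 to 6.65, so the groups overlapped throughout. Pigc (Entrez 67292, chromosome 1, 161969188 to 161973460), a membrane subunit, lay just above background at 5.68 ± 0.073 and 5.61 ± 0.10 (SD, n = 5 each; 1.04-fold, 0.965 to 1.13). Pigh (Entrez 110417, chromosome 12, 79080669 to 79089753), which binds the catalytic subunit, was at 7.03 ± 0.14 and 6.98 ± 0.057 (SD, n = 5 each; 1.04-fold, 0.947 to 1.14), with control replicate 4 apart at 6.88. Pigq (Entrez 14755, chromosome 17, 25926420 to 25942881), which holds the complex together, was at 9.98 ± 0.050 and 9.93 ± 0.096 (SD, n = 5 each; 1.04-fold, 0.969 to 1.12). The adjusted p-values of these 4 genes lay between 0.487 and 0.627 (limma). Each 95% interval included no difference and ended at or below 1.14-fold. Over 20 alternatives the log2 differences kept their sign but moved by over 1.5 times, from -0.17 to -0.024 for Piga, 0.018 to 0.11 for Pigc, 0.019 to 0.11 for Pigh and 0.031 to 0.12 for Pigq.

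The rest of the pathway was described through 36 further genes in 2 copies, all of them measured and above background. Of these 36, limma called 0, beside 0.826% of all probe sets, and the rank statistic called 0, beside 748 of 21789 probe sets. Counts of 0 lie near these shares. At an unadjusted p under 0.05, 3 stood above control and 3 below. Among probe sets above background, 11.2% stood above and 10.8% below at that level. Values lay above control in 23 of the 36 genes, against 47.2% of probe sets above background. The median difference was 0.036, beside -0.013 over all probe sets, a wider set that includes those below background.

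Among the 12 genes that assemble the precursor, Pigo, an ethanolamine phosphate transferase, had the smallest p (-0.17 on the log2 scale, 0.886-fold, 95% interval 0.824 to 0.953, adjusted p = 0.107, limma). Pigx, a stabilising subunit of the first mannosyltransferase, was at 1.08-fold (0.992 to 1.17, adjusted p = 0.296, limma), with its sign turned (-0.011) once the interquartile range entered as a covariate. Pigx (32084416 to 32099727) and Pigz (31926965 to 31946048), a mannosyltransferase at 1.12-fold, also lie on Mmu16 but before the duplicated interval. Pigyl, RefSeq's name for the older Pigy, was kept in this list although its protein belongs to the first-step enzyme, and was at 1.03-fold (0.967 to 1.11). In the transamidase, which joins the finished anchor to the protein, Pigt was at 1.06-fold (1.01 to 1.12, adjusted p = 0.169, limma) and Pigs at 1.09-fold (0.998 to 1.20), while Pigk, the catalytic subunit, lay at -0.015 on the log2 scale.

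Among 10 genes of anchor remodelling and export, Pgap3, which acts on the lipid of the anchor in the Golgi, was at 0.891-fold (0.818 to 0.971, adjusted p = 0.163, limma) and Mppe1, which removes an ethanolamine phosphate, at 0.918-fold (0.846 to 0.995). The other 8 lay above control on the brightest probe set of each gene, between 0.0087 and 0.083 on the log2 scale. Of all probe sets above background, 47.2% lay above control. Another probe set of Pgap1, below background, lay at -0.053, and the further probe sets of Tmed2 and Tmed10 are not described here. Among 9 genes that supply donors, Gnpnat1, an enzyme of UDP-N-acetylglucosamine synthesis, was at 1.12-fold (1.03 to 1.23, adjusted p = 0.158, limma) on the probe set that represented it and at 1.14-fold on another. Dpm1, the catalytic partner of Dpm2 in mannose donor synthesis, was at 1.06-fold (1.01 to 1.12, adjusted p = 0.214), and Dpm3, the third subunit, at 0.074 on the log2 scale.

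**Figure D4:**
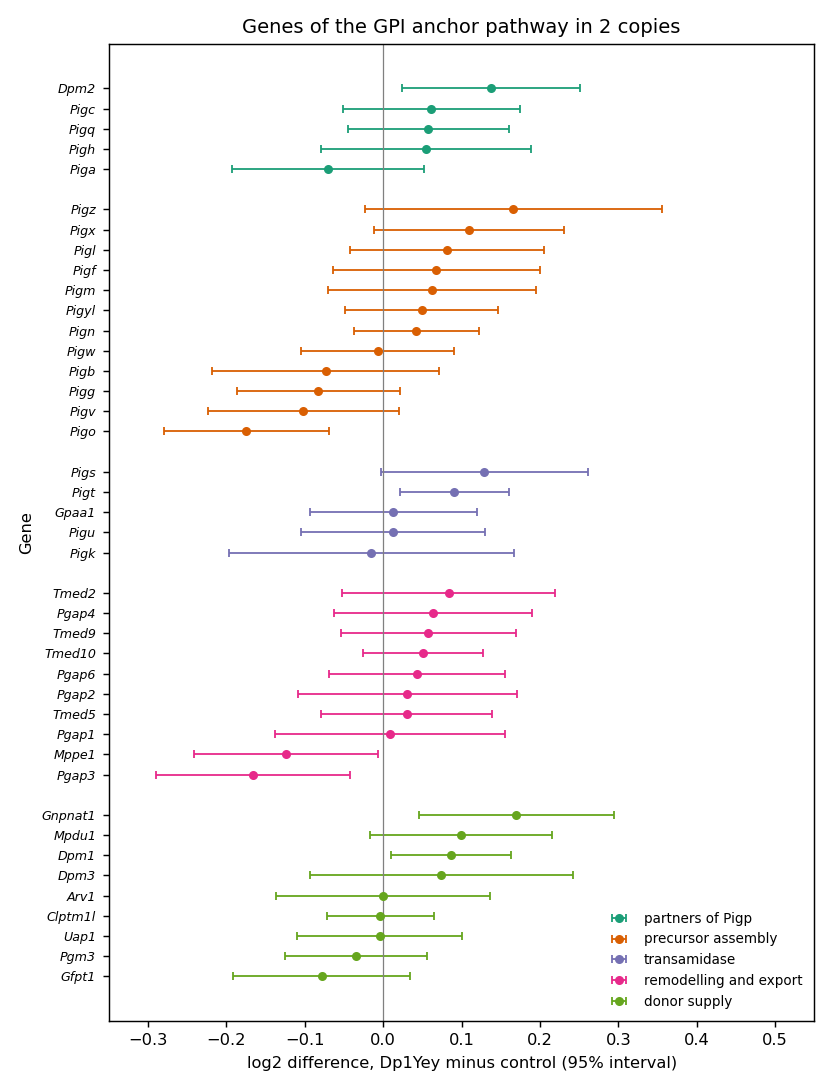
Points give the log2 difference (5 Dp1Yey minus 5 control mice) with its 95% interval for the 5 partner genes and the 36 further pathway genes, grouped by step. Differences lie between -0.17 for Pigo and 0.17 for Gnpnat1, and limma called 0 of the 41 genes, beside 0.826% of all probe sets.

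The proteins that carry the anchor were described last. Of 70 genes listed as GPI-anchored, 66 were measured by a probe set with a single symbol, 62 of them above background and all in 2 copies. Limma called 1 higher and 0 lower, beside 0.716% higher and 0.11% lower of all probe sets, while 10 stood above control and 10 below at an unadjusted p under 0.05, beside 8.87% and 10.4% of all probe sets. Values lay above control in 27 of the 66, beside 43.1% of all probe sets and 47.2% of those above background. The median difference was -0.017, beside -0.013 over all probe sets.

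The called gene was Car4, a membrane carbonic anhydrase of brain capillaries (Entrez 12351, chromosome 11, 84957754 to 84966054). It stood at 10.81, 10.76, 10.69, 10.68 and 10.68 in Dp1Yey replicates 1 to 5 and at 10.53, 10.33, 10.51, 10.38 and 10.40 in control replicates 1 to 5, so the groups did not overlap. Such a gap with Dp1Yey higher was found for 1 of the 66 listed genes and 2.48% of all probe sets. Car4 rose 1.23-fold (95% interval 1.15 to 1.31, adjusted p = 0.00807, limma), a log2 difference of 0.29. The call was lost (0.152, at 0.25) once the interquartile range entered as a covariate, and the adjusted p ran from 0.00297 to 0.152 over 19 alternatives. The mean of 5 endothelial markers ranged from 8.42 to 8.65 in Dp1Yey and from 8.29 to 8.61 in control mice, with 0 of 5 called (limma) and 2 higher at an unadjusted p under 0.05 (8.87% of all probe sets). Its part in the Car4 result was not tested.

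The other genes named by the same rule did not pass. Reck, a metalloproteinase inhibitor, was at 1.20-fold (1.09 to 1.32, adjusted p = 0.0763, limma) and passed without control replicate 1 (0.0211), with median centring (0.0345), without control replicates 1 and 2 (0.0446) and by the rank statistic. Over 19 alternatives its adjusted p ran from 0.0211 to 0.303. The glypican gene Gpc2 was at 0.877-fold, with all 5 Dp1Yey mice (6.12 to 6.23) below the control mice (6.29 to 6.57; adjusted p = 0.0996, limma), beside 2.36% of all probe sets with such a gap. Lynx1, a modulator of nicotinic receptors, was at 1.10-fold and Art3, which lay below background, at 1.16-fold. Folr1, a folate receptor of the choroid plexus, had the lowest difference of the list at -0.62 on the log2 scale (0.652-fold, 0.486 to 0.876, adjusted p = 0.140, limma), and passed by the rank statistic and without control replicate 3 (0.0487), with adjusted p from 0.0487 to 0.650 over 19 alternatives.

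Folr1 stood between 6.84 and 7.10 in Dp1Yey mice and at 8.16, 7.14, 6.94, 7.79 and 7.88 in control replicates 1 to 5, so control replicates 1, 4 and 5 were high and replicates 2 and 3 near the Dp1Yey mice. All 5 choroid plexus markers lay below control, 0 of them called by limma and 4 lower at an unadjusted p under 0.05 (10.4% of all probe sets), although Kcne2 and Clic6 among them are in 3 copies. Their mean ranged from 6.96 to 7.78 in Dp1Yey and from 7.24 to 8.71 in control mice. The choroid marker Ttr was at 13.16, 10.50, 10.26, 13.09 and 13.11 in control replicates 1 to 5, high in the same 3 mice as Folr1. In Dp1Yey replicates 1 to 5 Ttr was at 10.46, 9.37, 9.20, 11.95 and 11.32. Dp1Yey replicates 4 and 5 thus lay above control replicates 2 and 3 for Ttr. Their Folr1 values, 7.10 and 7.05, lay between those of control replicates 2 and 3. The other markers differed in this: for Kl the same 2 Dp1Yey mice, at 8.28 and 8.22, also lay between these controls (8.32 and 8.12). For Aqp1, at 6.25 and 6.24, they lay below both (6.52 and 6.27). The mean of the 5 markers, 7.78 and 7.67, lay above both (7.47 and 7.24). The part of choroid plexus tissue in the Folr1 values was not tested.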

How the data were processed

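RNA of 10 hippocampi was hybridised to Affymetrix Mouse Gene 1.0 ST arrays. The log2 intensities deposited by the authors had been through RMA, which corrects background, normalises by quantiles and summarises probes. RMA, limma and mm10 are named in the submitters' processing notes, without saying which arrays were normalised jointly. Quantile normalisation removes shifts common to an array, and the summary tends to compress fold changes. Of 35556 probe sets, 21789 had 1 gene symbol, 1621 several and 12146 no listed symbol. Only those with 1 symbol were used, with positions from RefSeq GRCm38.p6 (mm10).

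Groups were compared with limma 3.58.1 in R 4.3.3 (lmFit, eBayes, group as the only factor), two-sided, with Benjamini-Hochberg adjustment over all 21789 probe sets and a threshold of 0.05. In list counts each gene was represented by its brightest probe set. The floor of 5.44 was the 90th percentile over 1027 olfactory receptor genes of their mean values. The study's own statistic ranks fold changes over pairs of arrays, and a rewritten version was an alternative, as were other normalisations, filters, priors, weights, the replicate block, the interquartile range as a covariate and leaving arrays out. The rewritten version called probe sets in either tail of a normal curve fitted over all of them, with no adjustment for their number. Arrays have no read depth; here their number sets the precision. The code was tested on simulated data.

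The members, gene lists and tests were chosen with earlier results of these data known. Named genes are all members, the 2 genes of smallest p in each pathway list, the 6 of smallest p among GPI-anchored proteins, the 5 interval genes above the floor on each side of Pigp and the 5 genes most like each Pigp probe set; Pigz, Pigyl, Pigk, Dpm3, Mir155 and the place of the Ywhaz and Akt2 numbers were added after their values were seen.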

Additional observations from a re-analysis of the deposited data

Results flagged for a closer look

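A mouse far from the others of its group of 5 (a gap above 0.71 of the group's range) was found in 5 of the 62 groups checked, over 31 probe sets, where chance gives about 1 in 20. Among the transferase genes this was Pigh, at 6.88 in control replicate 4 against 6.99 to 7.03 in the other control mice. Pigs stood at 8.87 in control replicate 2 against 9.10 to 9.18. Reck stood at 7.92 in control replicate 1 against 7.64 to 7.71. Of the neighbours of Pigp, Sim2 stood at 5.92 in control replicate 2 against 5.66 to 5.72, and Vps26c at 8.93 in control replicate 5 against 8.62 to 8.67.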

How the results depend on the processing

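No alternative turned the direction of either Pigp probe set or of a partner gene. Limma or the rank statistic called 0 of the 5 partners and 0 of the 36 further pathway genes under each of the 20 alternatives. These alternatives called between 59 and 748 probe sets in all. The rank statistic gives no difference for Pigp, and 1 probe set per gene leaves out 10441055. Leaving out 1 array in turn, the log2 difference was 0.26 to 0.34 for 10545528 and 0.12 to 0.18 for 10441055. It was 0.27 and 0.12 with quantile normalisation repeated, 0.35 and 0.20 with median centring, 0.37 and 0.21 once the interquartile range entered as a covariate (the covariate fit), and 0.32 and 0.17 without control replicates 1 and 2. The sample titles do not say whether equal replicate numbers pair the mice. The correlation of deviations was over 0.1 in 1 of 5 pairs (0.22 in pair 4), which cannot settle it. With the replicate block, which leaves fewer degrees of freedom, 112 probe sets were called in all against 180. In this balanced design the block leaves the differences (0.30 and 0.15) as they are by construction. The count of GPI-anchored genes called was 1 with all arrays, 2 with median centring, 0 in the covariate fit, 2 without control replicates 1 and 2, 5 by the rank statistic and 1 to 2 leaving out 1 array, of which the cases of 2 were without control replicate 1 and without control replicate 3. The count of interval genes called, 60 with all arrays, was 35 in the covariate fit and 48 to 58 leaving out 1 array. Over all probe sets, 324 were called with median centring (96.0% higher, against 86.7%), 59 with the covariate, 748 by the rank statistic, and 106, 109, 90 and 95 without Dp1Yey replicates 1, 2 and 3 and control replicate 4 in turn. Signs turned for Pigx (-0.011 with the covariate) and Kcnj15 (0.043 with the covariate). For Chaf1b the difference was 0.0092 with quantile normalisation repeated, 0.0045 with median centring, 0.056 with the covariate and 0.00089 without control replicates 1 and 2. For Sim2 it was 0.016, 0.018 and 0.032 in the same first 3 settings, 0.0050 with array weights, 0.015 without control replicates 1 and 2, and between -0.046 and 0.018 leaving out 1 array. The cause of these changes was not tested.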
